A study of Mus musculus with 8 samples.

Results

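The genes described here were 7 regulators of meiotic entry in the mouse fetal ovary, *Stra8*, *Gm4969* (the gene of MEIOSIN), *Zglp1*, *Meioc*, *Ythdc2*, *Rbm46* and *Zfp541*, taken by symbol from the 25239 genes counted in each library. All 7 passed the filter on low counts, as did 14249 genes in total. Their roles are ordered along the path into meiosis. STRA8 is a transcription factor switched on by retinoic acid, and MEIOSIN is its DNA-binding partner. Together they activate the genes of the meiotic programme. ZGLP1 is a GATA-like zinc finger factor that acts downstream of BMP signalling in female germ cells. MEIOC, the RNA helicase YTHDC2 and the RNA-binding protein RBM46 form a cytoplasmic complex that lowers the transcripts of the mitotic cycle as germ cells enter meiosis. ZFP541 is a zinc finger protein of a histone deacetylase complex, and its gene is activated as meiosis begins.

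RNA-Seq libraries were made from whole E14.5 fetal ovaries on a C57BL/6 background. The 4 control libraries came from Bmpr1a fl/fl embryos and the 4 *Bmpr1a*-cKO libraries from littermates that also carried 1 copy of the driver (Bmpr1a fl/fl; Oct4-Cre Cre/WT). This tamoxifen-inducible Cre is driven by the promoter of *Oct4*, a gene of the germ line at this age, and deletes the floxed part of *Bmpr1a*, the gene of a type I BMP receptor. All dams were injected daily from 9.5 to 11.5 days post coitum with 4-hydroxytamoxifen (1 mg) and progesterone (0.5 mg), so control embryos were exposed to both agents as well. The controls did not carry the driver, so the presence of Cre and the deletion of *Bmpr1a* cannot be told apart here. Each library pooled the ovary pairs of 2 embryos. The embryos came from 6 litters, and the litter of each library is not given, so litter and genotype were not separated in any test. The comparison addresses which steps of the path into meiosis depend on BMPR1A in germ cells. Levels are given as CPM, the counts of a gene for each 1000000 counts of its library after TMM scaling, and Log2FC is that of *Bmpr1a*-cKO over control. A gene is said to have fallen or risen only where its false discovery rate (FDR) in the edgeR quasi-likelihood test over all genes was below 0.05. A DEG had, in addition, an absolute Log2FC above 0.5.

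The libraries held 8562961 to 15365052 counts, and *Bmpr1a*-cKO replicate 1 was the shallowest. *Bmpr1a* ranged from 199 to 237 CPM across control libraries and from 185 to 209 CPM across *Bmpr1a*-cKO libraries (Log2FC -0.16 ± 0.0640 SE, FDR = 0.0692). The gene remains intact in somatic cells and the counts cover all of its exons, so this value does not measure the deletion in germ cells. *Ddx4*, which encodes a germ cell RNA helicase and marks the germ cells of the tissue, had a mean of 142 ± 21.9 CPM in control libraries and of 153 ± 32.3 CPM in those of *Bmpr1a*-cKO (SD over 4 each, Log2FC 0.11 ± 0.133 SE, FDR = 0.561). The lowest *Ddx4* value, 106 CPM, was that of *Bmpr1a*-cKO replicate 1, and without that library the Log2FC was 0.25 (FDR = 0.0466). Among 7 germ cell markers, *Tdrd5*, *Dnd1* and *Dazl* rose (Log2FC 1.05, 0.78 and 0.63), *Mael* fell (-0.80), and 3 did not pass, whereas without *Bmpr1a*-cKO replicate 1, 5 rose and 1 fell. All 6 pregranulosa markers fell, led by *Foxl2* (-0.57), *Rspo1* (-0.48) and *Irx3* (-0.46), and their summed level ranged from 734 to 787 CPM in the controls and from 525 to 672 CPM in the *Bmpr1a*-cKO libraries. With germ cell marker scaling 3 of these 6 calls were left, and with *Ddx4* scaling all 6 were lost. The median Log2FC of the 6 genes was -0.40 with TMM, -0.57 with germ cell marker scaling and -0.43 with *Ddx4* scaling. The median of all genes tested was -0.21 with germ cell marker scaling and -0.087 with *Ddx4* scaling. The summed level of 5 macrophage markers was 16.5 to 20.2 CPM against 23.6 to 28.2 CPM, with *Adgre1* (0.78) and *Csf1r* (0.37, FDR = 0.0633 without *Bmpr1a*-cKO replicate 4) higher, and neither passed with germ cell marker or *Ddx4* scaling. Of the other markers, *Sox9* (-0.44) among 5 Sertoli, *Hsd3b1* (-0.63) among 4 steroidogenic and *Hbb-y* (-0.30) among 3 erythroid genes tested fell. Without *Bmpr1a*-cKO replicate 1, 3 steroidogenic genes fell, and without control replicate 4, 2 fell. The *Hbb-y* call was lost, with an FDR of up to 0.0945, without control replicate 1, 2 or 4 or *Bmpr1a*-cKO replicate 2 or 3. None of the 5 stroma, 5 endothelial and 4 mesonephros markers tested passed in edgeR, DESeq2 or limma-voom, and 1 mesonephros gene had an unadjusted p below 0.05. No marker list was at 0 in any library, although 2 erythroid genes, *Hba-a1* and *Hbb-bt*, were at 0 in all 8. The part of these markers in the differences of the 7 regulators was not tested.

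Of the 7 regulators, 5 fell in *Bmpr1a*-cKO ovaries and 0 rose in edgeR, DESeq2 or limma-voom (6 and 1 at an unadjusted p below 0.05), whereas 12.5% of all genes tested fell and 17.3% rose. *Zfp541*, *Gm4969*, *Meioc* and *Zglp1* were DEGs, lower in *Bmpr1a*-cKO (4.06% of all genes tested were such DEGs, and 6.11% were DEGs in the other direction). *Ythdc2* fell by less than the fold threshold. *Stra8* and *Rbm46* did not pass at either threshold. In the same 5 genes that fell, every *Bmpr1a*-cKO library lay below every control library, as in 11.7% of all genes. The median Log2FC of all genes tested was -0.0042. In whole ovaries, fewer germ cells in a given stage and less RNA per cell cannot be told apart.

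**Figure D1:**
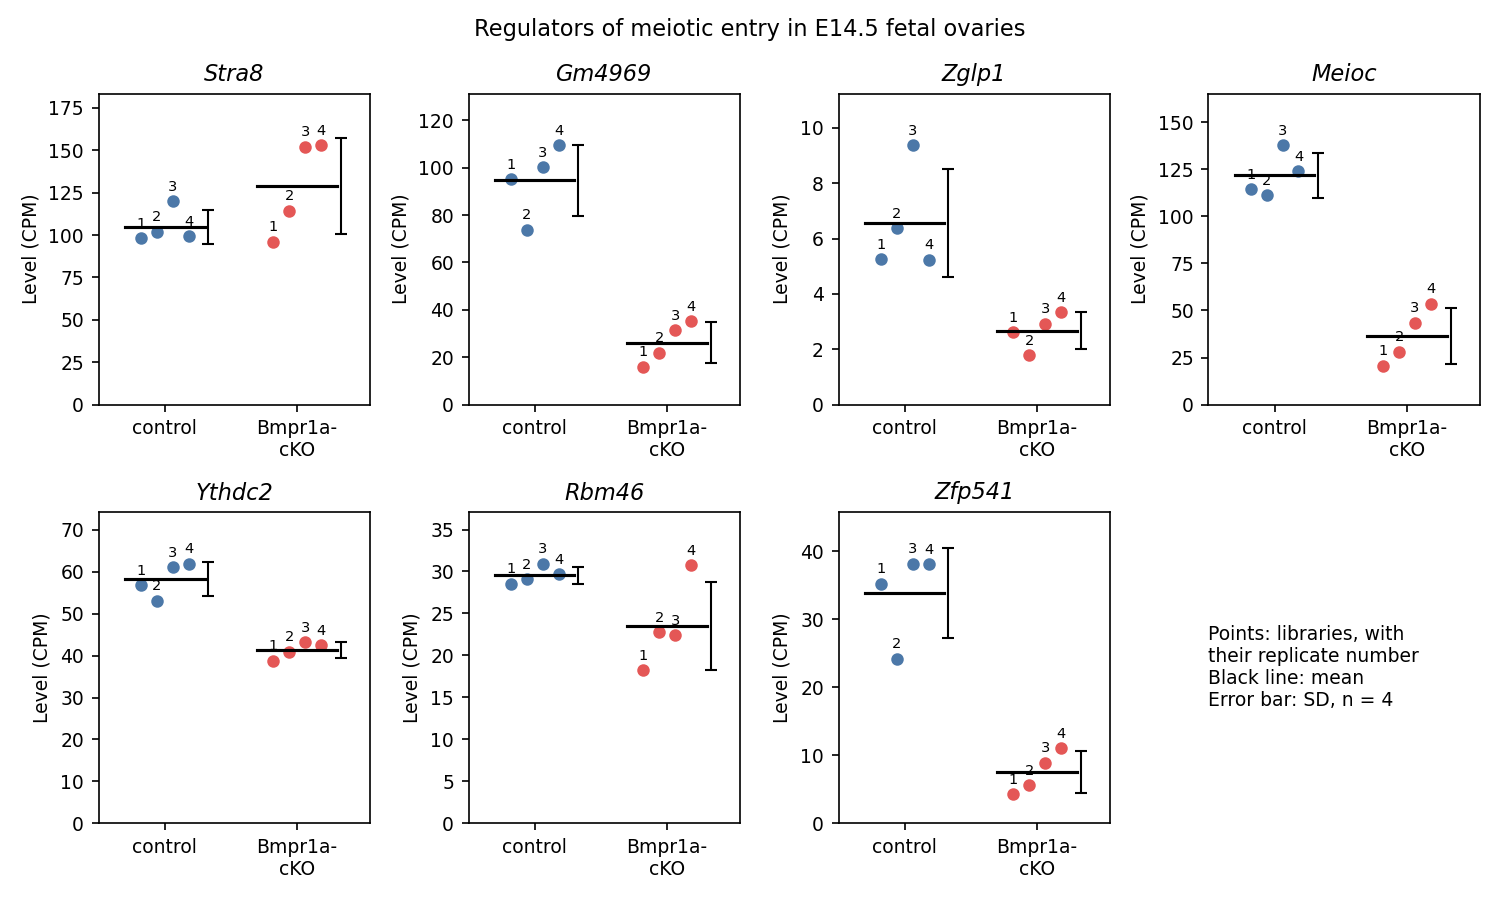
Level of each regulator (CPM, linear axes from 0) in the 4 control (blue) and 4 *Bmpr1a*-cKO (red) libraries, numbered by replicate, with the mean (line) and SD (error bar). The red points lie below all blue points for *Gm4969*, *Zglp1*, *Meioc*, *Ythdc2* and *Zfp541*, and overlap them for *Stra8* and *Rbm46*.

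*Stra8* lies at chr6:34920163-34939344 on the plus strand of mm10, with no other annotated gene over it. Its level was 98.2, 102, 120 and 99.3 CPM in control replicates 1 to 4 and 96.0, 114, 152 and 153 CPM in *Bmpr1a*-cKO replicates 1 to 4. The genotypes overlapped, as 1 *Bmpr1a*-cKO library lay below all controls and 2 lay above all of them. The Log2FC was 0.30 ± 0.121 (SE; 95% interval 0.04 to 0.56, not adjusted for the number of genes; FDR = 0.0731), and this interval holds neither a fall nor a 2-fold rise. The call turned on single libraries, since the Log2FC was 0.41 (FDR = 0.00315) without *Bmpr1a*-cKO replicate 1 and 0.37 (FDR = 0.0466) without control replicate 3. Leaving out any other library gave 0.20 to 0.36 with FDRs above 0.05.

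*Gm4969* (chr7:19099046-19118368, minus strand) was at 95.2, 73.9, 100 and 109 CPM in control replicates 1 to 4 and at 16.1, 21.9, 31.4 and 35.3 CPM in *Bmpr1a*-cKO replicates 1 to 4. The highest *Bmpr1a*-cKO library had less than 1/2 of the lowest control value. The gene fell to 28.0% of control (Log2FC -1.84 ± 0.174 SE; 95% interval -2.21 to -1.46; FDR = 2.52e-06), the 31st lowest Log2FC of the 14249 genes. The 2 partners of the complex, at similar CPM in control ovaries, thus had different changes. The ratio of *Gm4969* to *Stra8* CPM was 0.970, 0.724, 0.836 and 1.10 in control and 0.168, 0.192, 0.207 and 0.231 in *Bmpr1a*-cKO replicates 1 to 4. All 4 *Bmpr1a*-cKO ratios were below all 4 control ratios. The mean log2 ratio was lower by 4.52-fold (difference -2.18; control -0.16 ± 0.262, *Bmpr1a*-cKO -2.33 ± 0.192, SD, n = 4; two-sided exact permutation p = 0.0286, which is the lowest value this design permits, adjusted p over 3 ratios = 0.0429).

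The RefSeq promoters of this pair and of *Zglp1* and *Meioc* are shown because they belong to 2 partners that moved unequally and to 2 other genes that were DEGs. Each is the 300 bases from 250 before to 50 after the annotated start (GRCm38.p6, the build of mm10), read 5′ to 3′ on the strand of the gene. Capitals mark matches, on either strand, to 6 short motifs. These were CNCCTCAG for STRA8, AGGTCA for the half-site of retinoic acid receptors, CACGTG for the E-box bound by basic helix-loop-helix factors, TTCCCGC for E2F, AGATAA for GATA factors and GGCGCC for SMAD1/5. *Stra8* is shown at chr6:34920698-34920997 (plus strand), *Gm4969* at chr7:19118295-19118594 (minus strand), *Zglp1* at chr9:21067044-21067343 (minus strand) and *Meioc* at chr11:102665335-102665634 (plus strand).
Stra8: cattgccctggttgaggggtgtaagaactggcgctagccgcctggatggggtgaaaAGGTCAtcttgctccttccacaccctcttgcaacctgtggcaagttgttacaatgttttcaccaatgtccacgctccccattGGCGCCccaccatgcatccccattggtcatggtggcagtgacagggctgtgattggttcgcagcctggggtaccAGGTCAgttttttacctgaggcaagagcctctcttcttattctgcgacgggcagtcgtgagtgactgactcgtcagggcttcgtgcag
Gm4969: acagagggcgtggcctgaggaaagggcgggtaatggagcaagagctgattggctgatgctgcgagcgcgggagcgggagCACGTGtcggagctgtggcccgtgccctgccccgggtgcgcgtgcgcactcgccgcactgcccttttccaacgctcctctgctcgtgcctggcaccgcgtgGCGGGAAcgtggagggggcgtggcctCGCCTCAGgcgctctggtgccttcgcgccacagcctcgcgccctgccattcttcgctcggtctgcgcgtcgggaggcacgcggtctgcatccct
Zglp1: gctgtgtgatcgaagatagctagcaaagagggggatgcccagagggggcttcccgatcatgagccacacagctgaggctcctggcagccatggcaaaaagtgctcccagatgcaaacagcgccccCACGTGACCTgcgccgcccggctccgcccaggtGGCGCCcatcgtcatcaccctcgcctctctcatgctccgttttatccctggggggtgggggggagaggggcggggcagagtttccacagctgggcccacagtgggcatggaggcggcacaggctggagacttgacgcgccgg
Meioc: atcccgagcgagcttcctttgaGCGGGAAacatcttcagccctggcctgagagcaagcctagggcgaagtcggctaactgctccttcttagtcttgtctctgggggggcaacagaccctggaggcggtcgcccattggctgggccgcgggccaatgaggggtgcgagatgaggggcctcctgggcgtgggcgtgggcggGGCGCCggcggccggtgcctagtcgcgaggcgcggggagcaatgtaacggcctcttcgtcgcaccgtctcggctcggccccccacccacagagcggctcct

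With bases counted from 1 at the 5′ end of each window, the *Stra8* window held the receptor half-site at bases 57 and 213 and GGCGCC at base 139. The *Gm4969* window held the STRA8 motif at base 207, the E-box at base 80 and the E2F motif at base 181. In *Zglp1*, the E-box at base 126 and the half-site at base 130 shared 2 bases, and GGCGCC began at base 159. *Meioc* held the E2F motif at base 23 and GGCGCC at base 200. Of the windows not printed, *Rbm46* held the STRA8 motif and the E-box, and *Zfp541*, which was also a DEG, held none of the 6. The 6 windows matched to the regulators held no AGATAA. Of all 32851 RefSeq promoters of this length, 7.94% held the STRA8 motif, 16.3% the receptor half-site, 7.15% the E-box, 4.60% the E2F motif, 11.2% AGATAA and 11.9% GGCGCC. Matches were thus found both in regulators that fell and in regulators that did not pass the test, and each match describes letters only. The windows of *Stra8* and *Zfp541* had 10 and 4 CpG dinucleotides, those of *Gm4969*, *Meioc*, *Rbm46* and *Zglp1* had 35, 28, 25 and 17, and the median of all promoters was 7. The RefSeq start lay within 12 bases of a GENCODE transcript start in each case except *Zfp541*, where it lay 76 bases away. From the outermost GENCODE start of the gene, it lay 10031 bases inside for *Zfp541*, 1869 for *Meioc* and 785 for *Stra8*. Which start is used in these ovaries was not tested.

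*Zglp1* (chr9:21062393-21067093, minus strand) was the least abundant of the 7 by CPM. It was at 5.26, 6.38, 9.37 and 5.24 CPM in control replicates 1 to 4 and at 2.62, 1.78, 2.93 and 3.34 CPM in *Bmpr1a*-cKO replicates 1 to 4, from 64 to 100 counts and from 22 to 49 counts. No *Bmpr1a*-cKO library reached the lowest control. The gene fell to 41.3% of control (Log2FC -1.28 ± 0.231 SE; 95% interval -1.77 to -0.79; FDR = 0.000726). In the GENCODE annotation (vM21), 92.2% of its exon bases also belong to *Gm49373*, a longer gene on the same strand. This symbol was in none of the 8 count tables, so reads from the 2 genes could not be told apart here. Among 16 genes of BMP receptors, SMADs and their targets, 8 fell and 2 rose (median Log2FC -0.26). The largest falls were those of the BMP-induced genes *Msx2* (-1.81), *Msx1* (-1.20) and *Id1* (-0.86). *Acvr1* (0.26), a type I receptor gene, and *Smad1* (0.26) rose, but the *Smad1* call was lost, with an FDR of up to 0.117, without control replicate 1, 3 or 4 or *Bmpr1a*-cKO replicate 2 or 4. Neither rise passed when libraries were scaled to the germ cell markers, nor with *Ddx4* scaling. With germ cell marker scaling 4 genes of the list fell and 0 rose (median -0.45). With *Ddx4* scaling 3 fell and 0 rose (median -0.32).

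Among the 3 genes of the MEIOC-YTHDC2-RBM46 complex, *Meioc* had the lowest Log2FC. *Meioc* (chr11:102663716-102682237, plus strand) was at 114, 111, 138 and 124 CPM in control replicates 1 to 4 and at 20.6, 28.2, 43.4 and 53.7 CPM in *Bmpr1a*-cKO replicates 1 to 4. The genotypes were apart by more than 2-fold at their nearest values. *Meioc* fell to 30.4% of control (Log2FC -1.72 ± 0.191 SE; 95% interval -2.12 to -1.31; FDR = 1.08e-05). *Ythdc2* was at 56.8, 53.1, 61.2 and 61.9 CPM in control replicates 1 to 4 and at 38.7, 40.9, 43.2 and 42.4 CPM in *Bmpr1a*-cKO replicates 1 to 4. These 8 values formed 2 tight groups with a gap between them. *Ythdc2* fell to 71.0% of control (Log2FC -0.49 ± 0.0703 SE; 95% interval -0.64 to -0.34; FDR = 9.77e-05). Its distance from the fold threshold was smaller than its error, and without control replicate 1 or 2 or *Bmpr1a*-cKO replicate 3 or 4 its Log2FC was -0.54 to -0.51, which made it a DEG.

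*Rbm46* (chr3:82837228-82876483, minus strand) was at 28.5, 29.0, 30.9 and 29.7 CPM in control replicates 1 to 4 and at 18.2, 22.8, 22.4 and 30.8 CPM in *Bmpr1a*-cKO replicates 1 to 4. In 3 *Bmpr1a*-cKO libraries the value lay below all controls, and replicate 4 lay within their range. The Log2FC was -0.31 ± 0.118 (SE; 95% interval -0.56 to -0.05; FDR = 0.0630), and without *Bmpr1a*-cKO replicate 4 it was -0.48 (FDR = 0.00184). *Meioc* to *Ythdc2* ratios were 2.01, 2.10, 2.25 and 2.004 in control and 0.532, 0.689, 1.00 and 1.27 in *Bmpr1a*-cKO replicates 1 to 4. Control ovaries thus held about 2 *Meioc* counts for each *Ythdc2* count, and no *Bmpr1a*-cKO library did. These are counts of whole ovaries. The part of somatic cells in the counts of each partner was not tested, so the ratios are not those within germ cells. The difference in the log2 ratio was -1.34 (control 1.06 ± 0.0776, *Bmpr1a*-cKO -0.27 ± 0.555, SD, n = 4; exact permutation test, two-sided, p = 0.0286, adjusted p over 3 ratios = 0.0429). The *Rbm46* to *Ythdc2* ratio lay between 0.479 and 0.547 in the controls, between 0.471 and 0.725 after deletion, and the ranges overlapped (log2 difference 0.14, exact permutation test, two-sided, p = 0.371, adjusted p = 0.371).

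**Figure D2:**
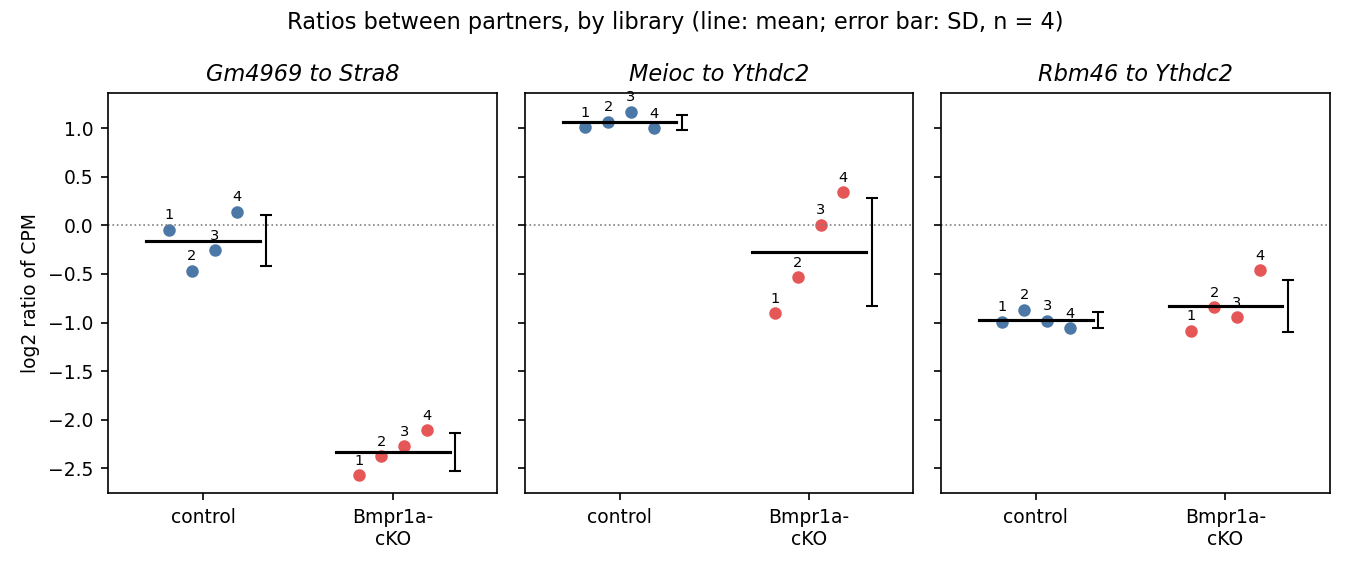
Log2 ratio of CPM between partners in each library, numbered by replicate, with the mean (line) and SD (error bar, n = 4). For *Gm4969* to *Stra8* and *Meioc* to *Ythdc2* the genotypes do not overlap and their means differ by -2.18 and -1.34, while for *Rbm46* to *Ythdc2* they overlap.

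*Zfp541* (chr7:16061814-16096334, plus strand) had the lowest Log2FC of the 7 and the 15th lowest of all genes tested. It was at 35.2, 24.2, 38.1 and 38.1 CPM in control replicates 1 to 4 and at 4.29, 5.58, 8.90 and 11.1 CPM in *Bmpr1a*-cKO replicates 1 to 4. Control replicate 2 was the lowest control for *Zfp541*, as it was for *Gm4969*, *Meioc* and *Ythdc2*, and it still lay above all *Bmpr1a*-cKO libraries. The gene fell to 22.6% of control (Log2FC -2.15 ± 0.208 SE; 95% interval -2.59 to -1.70; FDR = 2.90e-06). Of its known partners and their relatives, *Kctd19* did not pass the filter, and of the 5 tested *Trerf1* (0.33), *Hdac1* (0.22) and *Mideas* (0.19, listed as *Elmsan1*) rose and *Dnttip1* (-0.32) fell (median 0.19). All of these shifts were small against that of *Zfp541*, and none of the 4 calls held when libraries were scaled to the germ cell markers. The counts are of whole ovaries, so the size of any change within germ cells was not measured. Without *Bmpr1a*-cKO replicate 2 or 4, only *Trerf1* of the 3 rises passed. The *Hdac1* call was also lost without control replicate 4 or *Bmpr1a*-cKO replicate 3 (its FDR was highest, 0.0661, without *Bmpr1a*-cKO replicate 2), and that of *Mideas* without control replicate 1 (FDR = 0.0565).

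Levels between genes were compared per kilobase of annotated exon (CPM per kb). *Stra8* was highest in both genotypes, at 58.2 ± 5.66 CPM per kb without the deletion and 71.5 ± 15.7 CPM per kb with it (SD, n = 4). In control ovaries it was followed by *Meioc* at 26.4 ± 2.57, *Gm4969* at 20.2 ± 3.21 and *Rbm46* at 11.8 ± 0.410 CPM per kb. No library of any of these 4 overlapped with those of its neighbour in the order. *Zfp541* (6.95 ± 1.36), *Ythdc2* (6.56 ± 0.460) and *Zglp1* (6.03 ± 1.79 CPM per kb) came last and overlapped each other. In *Bmpr1a*-cKO ovaries, *Rbm46* came second at 9.42 ± 2.10 CPM per kb, before *Meioc* (7.90 ± 3.23), *Gm4969* (5.58 ± 1.87) and *Ythdc2* (4.66 ± 0.222), and each of these overlapped with the next. *Zglp1* (2.45 ± 0.607) and *Zfp541* (1.53 ± 0.632 CPM per kb) were lowest, below every *Ythdc2* value, and overlapped each other. *Stra8* thus stood further above the rest in *Bmpr1a*-cKO ovaries, with its lowest library at 53.2 CPM per kb and the highest value of any other member at 12.3 CPM per kb.

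The *Bmpr1a*-cKO libraries differed more among themselves in most of the regulators than in a typical gene. The highest *Bmpr1a*-cKO library had 2.60 times the lowest for *Meioc*, 2.58 times for *Zfp541*, 2.20 times for *Gm4969*, 1.87 times for *Zglp1*, 1.69 times for *Rbm46* and 1.59 times for *Stra8*, but 1.12 times for *Ythdc2*. The median over 11673 genes of at least 5 CPM, which do not include *Zglp1*, was 1.18 in *Bmpr1a*-cKO and 1.19 in control libraries. The germ cell marker *Ddx4* also spread, from 106 to 179 CPM in *Bmpr1a*-cKO and from 121 to 168 CPM in control libraries. A wide spread was thus not particular to the regulators. In control libraries the 7 genes ranged from 1.08 to 1.79 times. *Bmpr1a*-cKO replicate 1 was lowest for each member except *Zglp1*, and replicate 4 was highest for each except *Ythdc2*. Deviations of log2 CPM from the genotype means over the 8 libraries had a Pearson r of 0.99 between *Gm4969* and *Zfp541*, 0.95 between *Stra8* and *Meioc* and 0.94 between *Gm4969* and *Meioc*. Those of *Zglp1* with the other 6 were 0.27 to 0.63. *Ddx4* moved with *Stra8* (0.80), *Rbm46* (0.75) and *Meioc* (0.72). These values describe 8 libraries that differ in depth and germ cell content, and the part of either was not tested.

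By the same measure, the genes most like *Gm4969* among 11672 were *M1ap* (r = 0.99), a gene needed for meiosis in the male germ line, *Zfp541* (0.99) and *H2-K1* (0.98), a histocompatibility gene. They had Log2FCs of -1.56, -2.15 and -1.76. The genes most like *Stra8* were *Ect2* (0.99), which acts in cytokinesis, *Wdcp* (0.99) and *Zfp97* (0.98). *Ect2* rose (Log2FC 0.43), and *Wdcp* (-0.07, FDR = 0.719) and *Zfp97* (-0.13, FDR = 0.569) did not pass. The genes most like *Zglp1* were *Adam23*, *Mpp6* and *Lcmt1* (0.96 each), of which *Adam23* fell (-1.24), *Lcmt1* fell by a smaller amount (-0.25, FDR up to 0.0887 without control replicate 3 or *Bmpr1a*-cKO replicate 2) and *Mpp6* rose (0.30). *Ect2*, *Mpp6* and *Lcmt1* did not pass when libraries were scaled to germ cell markers. The top values of such a search are high by selection.

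The level of the regulators was also set against *Ddx4* in the same library, as a description. *Gm4969* was at 68.4% ± 18.3 of *Ddx4* in control and 16.9% ± 3.31 in *Bmpr1a*-cKO ovaries, *Meioc* at 86.9% ± 12.5 and 23.4% ± 6.22, and *Zfp541* at 24.4% ± 6.71 and 4.79% ± 1.31 (SD, n = 4). *Zglp1* was at 4.56% ± 0.677 and 1.81% ± 0.576. No library overlapped between the genotypes for these 4. The same held for *Rbm46*, with control values of 18.4 to 24.6% and *Bmpr1a*-cKO values of 13.6 to 17.2%. However, *Rbm46* did not pass in the fit scaled to *Ddx4* (Log2FC -0.45, FDR = 0.418). The share of all genes without overlap on this scale was not computed, so these separations have no background to be read against. *Ythdc2* overlapped on this scale, at 35.1 to 51.4% and 23.7 to 36.6%, as did *Stra8*, at 67.4 to 82.4% and 68.6 to 95.4%. When the whole fit was scaled to *Ddx4*, the Log2FC of *Ythdc2* was -0.59 with an FDR of 0.143, and that of *Stra8* was 0.19 (FDR = 0.881). When it was scaled to the 7 germ cell markers, the median of all genes moved to -0.21, *Ythdc2* was at -0.71 (FDR = 0.0106), *Rbm46* at -0.56 (FDR = 0.0710) and *Stra8* at 0.07 (FDR = 0.859). The 4 DEGs among the regulators passed under each of the 3 scalings, and no regulator changed sign. The share of all DEGs that were higher in *Bmpr1a*-cKO was 60.1% with TMM, 52.4% with *Ddx4* scaling and 31.1% with germ cell marker scaling. Of the 7 markers that set the last scaling, 3 rose and 1 fell with TMM, so it depends in part on genes that differed by genotype.

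**Figure D3:**
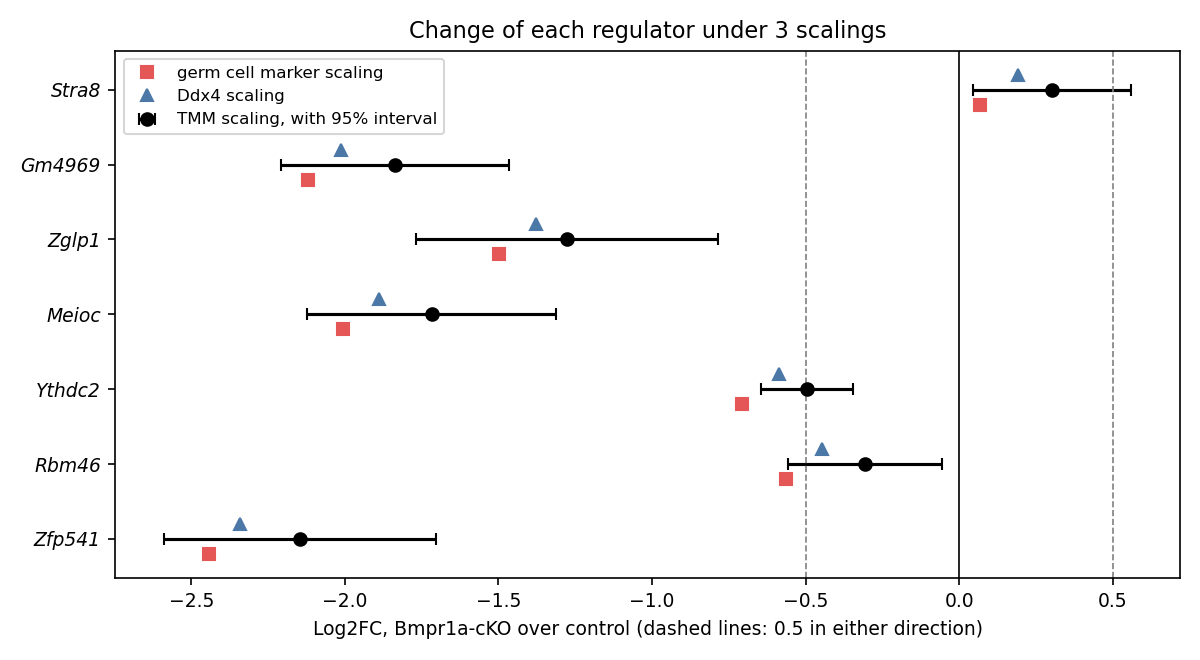
Log2FC of each regulator with TMM scaling (black, with the 95% interval) and with libraries scaled to 7 germ cell markers (red squares) or to *Ddx4* alone (blue triangles). *Gm4969*, *Zglp1*, *Meioc* and *Zfp541* lie beyond -0.5 under all 3, and *Stra8* stays between 0.07 and 0.30. *Ythdc2* lies between -0.71 and -0.49, and *Rbm46* between -0.56 and -0.31.

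Genes that act with, before or after the regulators were counted in lists, which were written with earlier results of these data known. Before *Stra8*, 14 genes of retinoic acid synthesis, binding, degradation and reception were tested, and 4 fell and 1 rose (median Log2FC -0.07). *Cyp26b1* (-0.61), which degrades retinoic acid, *Crabp1* (-0.61), which binds it, and the receptor gene *Rarg* (-0.28) fell, and *Rxrg* (1.20) rose from 0.549 to 1.25 CPM. With germ cell marker scaling 2 genes of the list fell and the *Rxrg* call was lost (median -0.27). With *Ddx4* scaling all 5 calls were lost (median -0.14). The *Cyp26b1* call was lost without control replicate 1 or *Bmpr1a*-cKO replicate 2 (FDR up to 0.0817), and that of *Rarg* without control replicate 1 or 3 or *Bmpr1a*-cKO replicate 2, 3 or 4 (FDR up to 0.0916). Without control replicate 1 or *Bmpr1a*-cKO replicate 2 or 3, 2 genes of the list fell in place of 4, and without *Bmpr1a*-cKO replicate 1, 2 rose.

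Of 19 repressors of premature meiotic entry tested, 7 rose and 1 fell (median 0.14). *Dmrt1* (1.63), which encodes a DM domain transcription factor, represses meiotic entry in the male germ line but is known as an activator of *Stra8* in the fetal ovary. It rose from 30.6 ± 7.87 to 93.8 ± 13.0 CPM (SD, n = 4), more than 3-fold, whereas the polycomb genes *Suz12* (0.45) and *Pcgf6* (0.37) rose by less than the fold threshold. *Ring1* (-0.25) fell, and its call was lost without control replicate 1 or 4 or *Bmpr1a*-cKO replicate 1 or 3 (FDR up to 0.102). With germ cell marker scaling only *Dmrt1* of this list passed, and the median of the list turned to -0.07.

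Downstream of STRA8 and MEIOSIN, all 6 target genes that the study names fell (median -1.30), among them *Meiob* (-2.59), *Prdm9* (-2.14) and *Mcmdc2* (-1.39), which act in meiotic recombination. The study named these targets for these samples, so their direction is not independent evidence. Of 25 genes of early meiotic prophase, 21 fell (median -1.05), 17 of them DEGs, and 0 rose in edgeR, DESeq2 or limma-voom or at an unadjusted p below 0.05. *Mei1* (-2.92) acts in the formation of meiotic DNA breaks, *Rad21l* (-2.49) encodes a meiotic cohesin and *Terb1* (-1.96) tethers telomeres to the nuclear envelope. The 4 that did not pass were *Hormad1* (-0.36, FDR = 0.0604), *Tex11* (-0.20, FDR = 0.419), *Rec114* (-0.13, FDR = 0.577) and *Spo11* (-0.06, FDR = 0.841). In the alternative fits of this list 16 to 22 genes fell and 0 rose. The study also tabulates most of the 25 genes for these samples, so their direction is not independent evidence either. Of 7 oocyte programme genes tested, 4 fell, led by *Figla* (-2.04), *Taf7l* (-1.01) and *Ybx2* (-0.86), and *Sohlh2* (0.97) rose (median -0.65).

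The complex of MEIOC acts on transcripts of the mitotic cycle. Of 16 genes in a general list of the mitotic cycle, not chosen as targets of the complex, 9 rose and 3 fell (median 0.31). Among those that rose was *Ccna2* (0.63), whose fall at this transition needs YTHDC2 according to work that the study cites. Whether these changes depend on that of *Meioc* was not tested. *Ccnb1* (1.29), the cyclin gene of entry into mitosis, rose from 88.3 ± 6.91 to 215 ± 8.94 CPM (SD, n = 4), and *Plk1* (0.82) and *Cdc20* (0.70), which act in mitosis, rose too. *Ccnd1* (-0.81), *Ccne2* (-0.65) and the spindle checkpoint gene *Bub1* (-0.35) fell. The study also reports *Ccna2*, *Ccnb1*, *Ccnd1* and *Ccne2* for these samples, so their direction is not independent evidence. Somatic cells of the ovary divide and also express these genes, so the counts hold both sources. With germ cell marker scaling 2 rose and 2 fell. The other YTH domain readers and the m6A enzymes moved little in counts of whole ovaries, as 1 of 11, the demethylase gene *Alkbh5* (-0.30), fell (median 0.04). It was also the 1 gene of the list at an unadjusted p below 0.05 and the 1 that passed in DESeq2 and limma-voom, but it did not pass with germ cell marker or *Ddx4* scaling.

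**Figure D4:**
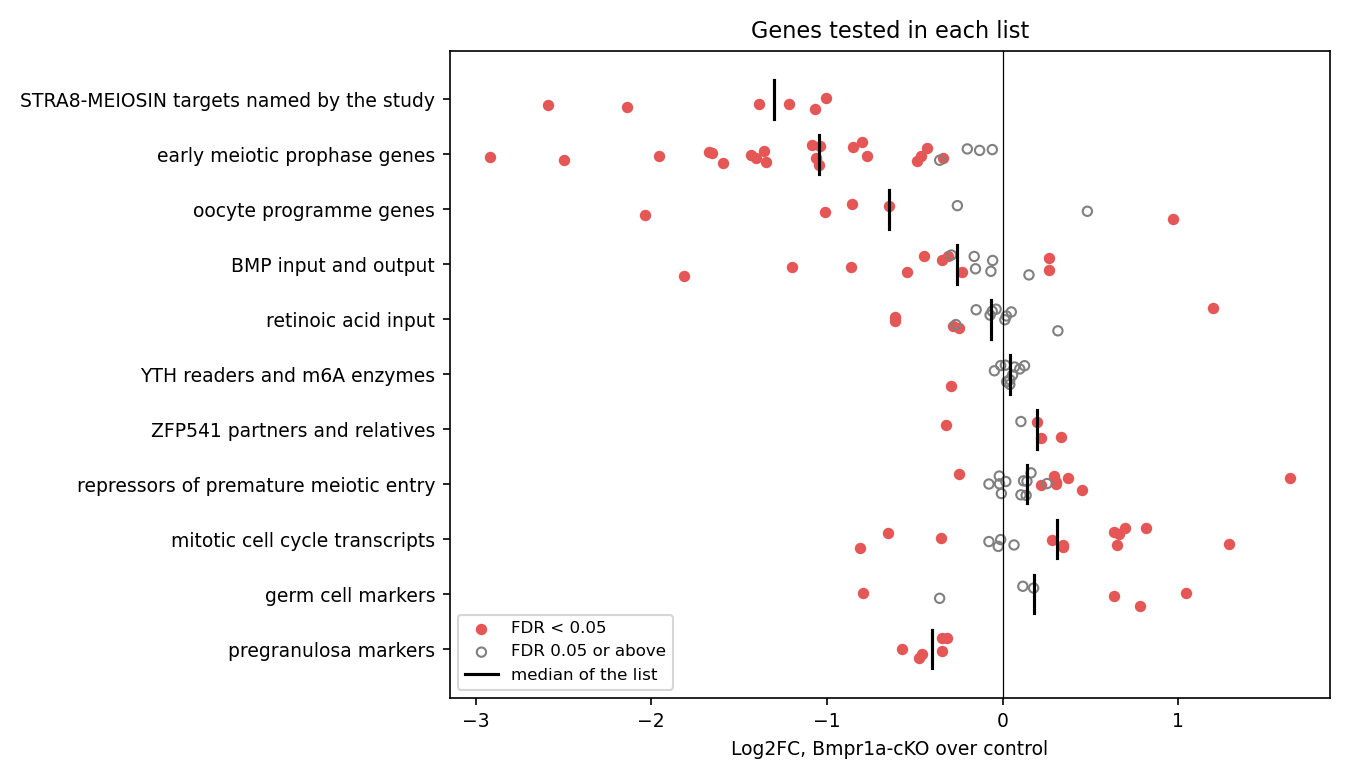
Log2FC of each gene tested in 11 lists (points, jittered vertically), filled where the FDR was below 0.05, with the median of the list (black line). The STRA8-MEIOSIN targets and the early prophase genes lie to the left, with medians of -1.30 and -1.05, and the mitotic cell cycle transcripts lie on both sides of 0 with a median of 0.31.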

How the data were processed

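RNA-Seq of whole E14.5 ovaries (4 control and 4 *Bmpr1a*-cKO libraries, 2 embryos each) was analysed. The authors trimmed reads with Trimmomatic 0.39, aligned them to mm10 with STAR 2.5.2 and deposited 1 table of raw integer counts for every library, with genes named by symbol. The annotation and the strand setting are not given in the sources used here. The library kit keeps strand. The authors also deposited a signal table of CPM for 14244 genes, of which only the gene names were used, as an alternative filter.

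Counts were analysed in R 4.3.3 with edgeR 4.0.16 (filterByExpr, TMM, quasi-likelihood F test, two-sided, Benjamini-Hochberg adjustment over 14249 genes). Depth was 8562961 to 15365052 counts per library, so 3 counts equal 0.189 to 0.358 CPM. The SD is over 4 pools and includes animals, pooling and library preparation. The edgeR p-values set the genotype difference against the spread between these pools, with the spread of each gene moderated across genes. Ratios of CPM (pseudocount of 0.1 CPM) were compared by exact permutation. Deviations of log2 CPM carried a prior count of 2. Positions and exon lengths are those of GENCODE vM21, and promoters those of RefSeq, where 6 of 7 members matched, *Gm4969* as *Bhmg1*.

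The members and gene lists were chosen with earlier results of these data known. All members, *Ddx4* and *Bmpr1a* are named, as are up to 3 genes per list and direction with the largest absolute Log2FC at an FDR below 0.05, and the 3 genes most like *Gm4969*, *Stra8* and *Zglp1*. *Hormad1*, *Tex11*, *Rec114*, *Spo11*, *Ccna2*, *Kctd19*, *Hba-a1* and *Hbb-bt* were named after their values were seen. Alternatives were the likelihood ratio test, DESeq2 1.42.0 and limma-voom (limma 3.58.1), 5 other scalings, 3 other filters, a block for the replicate number, leaving out single libraries, 2 other thresholds and a pseudocount of 1 CPM. For the gene lists and the genes named from them these alternatives were chosen after seeing the data. The procedure was tested on simulated data.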

Additional observations from a re-analysis of the deposited data

How the results depend on the processing

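*Gm4969*, *Zglp1*, *Meioc* and *Zfp541* were DEGs in 20 of 20 alternative fits, and *Ythdc2* was a DEG in 11 of 20 with an FDR below 0.05 in 19. The FDR was below 0.05 in 4 of 20 fits for *Stra8* and in 6 of 20 for *Rbm46*, in both cases including the replicate block (FDR = 0.0147 and 0.0208) and the fit without a filter. The count of DEGs over all genes was 725 with *Ddx4* scaling, 4242 with no fold threshold and 501 with a log2 threshold of 1, against 1449. The replicate numbers were not taken to pair the libraries, because the labels tie no number to a litter or batch, and same-numbered libraries had correlations of deviations of 0.198, 0.161, 0.108 and -0.0871 and not every library correlated best with its own number. With the replicate number as a block there were 1457 DEGs, 6 members fell and 1 rose, and the log2 ratios, equal by construction to those without it, were -2.18 (*Gm4969* to *Stra8*), -1.34 (*Meioc* to *Ythdc2*) and 0.14 (*Rbm46* to *Ythdc2*), where the exact sign-flip test cannot go below p = 0.125. Leaving out 1 library gave -2.28 to -2.08 and -1.54 to -1.12 for the first pair of ratios, where p cannot go below 0.0571. With germ cell marker scaling *Ddx4* turned to -0.12 and *Mideas* (*Elmsan1*) to -0.016, the sole reversals. Of 720 list counts under alternatives, 66 moved by over 1.5 times, and of 1120 values of named genes 86 lost and 7 gained their call. The depth limits *Zglp1* most, which had 22 counts in its lowest library.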
